A study of Drosophila melanogaster with 8 samples.

Results

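Glutathione transferases (GSTs) and UDP-glycosyltransferases (UGTs) were followed in the intestine of adult *Drosophila melanogaster* given dietary N-acetyl-D-glucosamine (GlcNAc). The members were all genes of the expression table whose symbol starts with Gst, a class letter (D, E, S, T, O or Z) and a number, or with Ugt and a number. This gave 38 of 7671 genes, 25 of them GSTs and 13 of them UGTs. The classes were GstD with 7 members, GstE with 9, GstT with 4, GstO with 3, and GstS and GstZ with 1 each. By the number in the symbol, 8 UGTs belonged to Ugt86, 2 to Ugt36, 2 to Ugt37 and 1 to Ugt35. Genes of either family outside the table were not analysed here.

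Intestines were dissected from 7-day-old mated females after 24 hours on food diluted to 0.25 of its strength, a calorie restriction that both groups shared. GlcNAc, an amino sugar that cells phosphorylate and pass into the hexosamine biosynthesis pathway, was added at 0.1 M for the GlcNAc group and left out for the control group. All flies carried UAS-mCD8::GFP and hsFLP, 1 copy of tub-GAL4 (tub-GAL4/+) and, on the third chromosome, FRT82B tub-GAL80 over a plain FRT82B. These are the parts of a system that marks cell clones, with the ubiquitous tubulin promoter driving GAL4 and its repressor GAL80, and both groups share them. Each group had 4 libraries from independent samples taken side by side, and the number of intestines in a sample is not given in the sources used here. In the labels the source is given as whole larvae and the treatment of the second group as glucosamine, whereas the tissue field names intestine and the protocol names GlcNAc, and the latter are followed here.

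GSTs couple the tripeptide glutathione to reactive or fat-soluble compounds, and UGTs couple a sugar from a UDP-sugar to them, so that the products dissolve in water and can be exported. Both are counted among the second phase of detoxification, after oxidation by cytochrome P450 enzymes, and the insect gut is a main site of it. In flies the Delta and Epsilon classes of GSTs are insect-specific and lie in gene clusters made by repeated duplication, whereas the Omega, Theta, Sigma and Zeta classes have relatives in vertebrates. Insect UGTs are membrane proteins of the endoplasmic reticulum, and most of those with Ugt86D symbols also lie side by side.

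The libraries held 8839877 to 9838415 reads on the listed genes in control and 9281492 to 10326189 in GlcNAc, so that 1 CPM (a count per 1000000 reads, as scaled by the authors) stood for 8.94 to 10.5 reads. Of the markers of enterocytes, the absorptive cells that make up most of the gut lining, 8 of 10 were listed. Of these Mal-A1, a maltase, passed the test as higher on GlcNAc and lambdaTry, a trypsin, as lower (25% called, beside 15.3% of all genes). Markers of enteroendocrine cells were listed for 9 of 10, and 3 of them (AstA, Dh31 and CCHa2) were higher, beside 8.75% of all genes, with 8 of 9 log2 fold changes positive. The 6 progenitor markers gave no call, and of the 7 visceral muscle markers 1, Act57B, was lower (14.3% called, beside 15.3% of all genes). All 7 had negative log2 fold changes (1 turned positive without GlcNAc library 2), and they summed to between 822 and 1155 CPM in control and between 669.9 and 941.5 CPM on GlcNAc. Of neighbouring tissues, no ovary marker of 7 was listed, 2 of 8 for Malpighian tubules were, and the 3 of 7 for fat body summed to between 23.5 and 651 CPM in control and between 102 and 334 CPM in GlcNAc, highest in library 2 of each group. Of 4 hemocyte markers 1, Hml, was listed. None of the markers of these neighbouring tissues was called. The part of cell type or of carried-over tissue in the results that follow was not tested, and in RNA from whole intestines fewer cells of a type and less RNA per cell cannot be told apart.

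Of the 38 members, 18 differed between GlcNAc and control at an adjusted p of 0.05 by limma with Benjamini-Hochberg adjustment over all 7671 genes. This was 47.4% of the members, and 15.3% of all genes passed the same test. The calls went in both directions. On GlcNAc 8 members were higher (21.1% against 8.75% of all genes) and 10 were lower (26.3% against 6.6% of all genes). Among the GSTs 4 rose and 5 fell, and among the UGTs 4 rose and 5 fell. The share called was 36% of the GSTs and 69.2% of the UGTs, and the difference between these shares was not tested. With the UGTs under other symbols, described below, 50% of 26 were called. Without regard to sign, the median size of the log2 fold change was 0.33 in the GSTs and 0.70 in the UGT members. It was 0.44 in the 26 UGTs and 0.15 over all genes.

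The median of the mean levels was 113.5 CPM for the called members and 15.8 CPM for the 20 others. Above a mean of 10 CPM, 16 of 30 members were called, beside 18.7% of all genes at that level. The values of the 2 groups did not overlap for 18 of the 38 members, which was so for 20.5% of all genes. These were 17 of the 18 called members, the exception being Ugt37b1, and the uncalled GstD3. For each of the 17 the exact two-sided permutation test over the 70 assignments of the libraries gave p = 0.0286, the smallest it can give with 4 libraries against 4. Groups that do not overlap always give this value, as the uncalled GstD3 did, so it adds nothing to the separation.

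The authors' filter kept genes over 1 CPM in at least 3 libraries of a group. On the deposited scale 34 members met it in both groups, and 16 of these were called, 6 higher and 10 lower. Over all listed genes, whichever group they met it in, 8.75% were higher and 6.6% lower. The shares among all genes meeting it in both groups were not computed. GstE2, GstE11 and Ugt86Di met the filter only through the GlcNAc libraries and Ugt86De only through the control libraries. Such genes had to differ to be listed at all, which applies to the calls of GstE11 and Ugt86Di below.

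**Figure D1:**
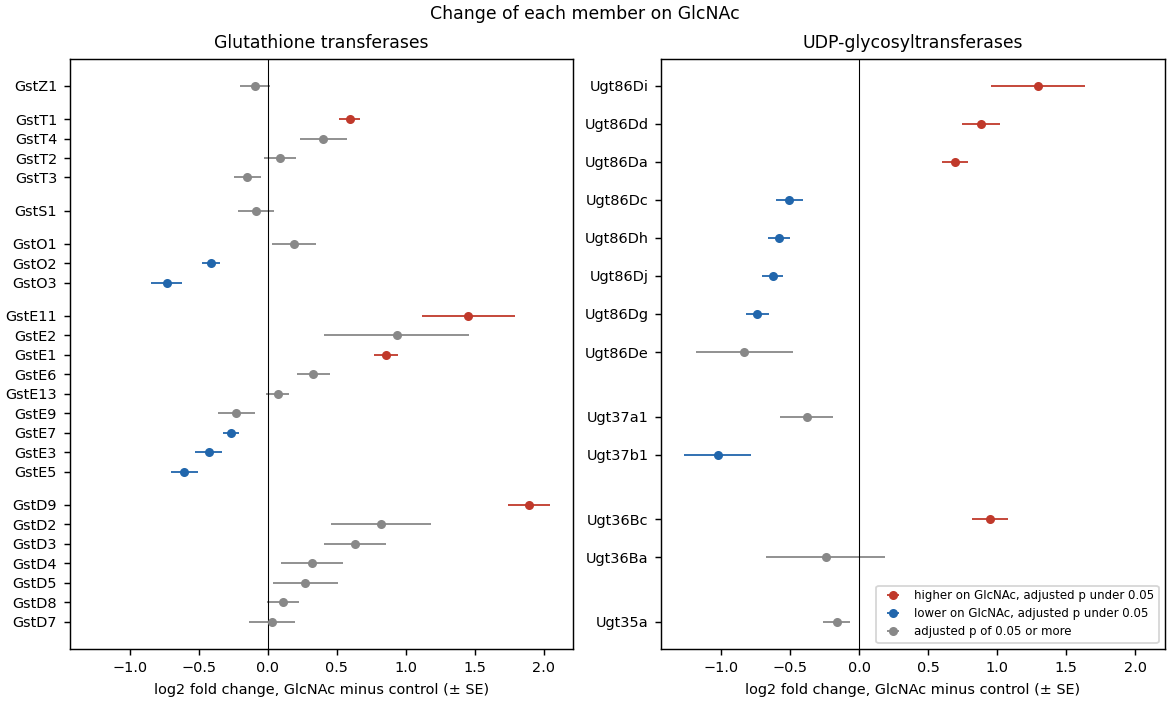
Log2 fold change of each member on GlcNAc against control with its standard error (4 libraries per group), ordered by class within each family. Red and blue points passed an adjusted p of 0.05, and they lie on both sides of 0 in the GSTs (4 and 5) and in the UGTs (4 and 5).

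In the Delta class GstD9 rose and the other 6 members gave no call, so that 14.3% of the class was called, near the 15.3% of all genes. The log2 fold changes of the 7 members ran from 0.03 to 1.89 with a median of 0.32, and 4052 of all 7671 genes had a positive one. That of GstD7 was negative with quantile normalization and without control library 1, control library 2 or GlcNAc library 2. GstD9 stood at 53.9, 40.9, 41.2 and 38.8 CPM in control libraries 1 to 4 and at 132, 178, 208.5 and 136.0 CPM in GlcNAc libraries 1 to 4. The lowest GlcNAc library was 2.45 times the highest control library. On the log2 scale the difference was 1.89 with an SE of 0.15, a 3.71-fold rise with an adjusted p of 4.5e-05 by limma, and 36 genes of the whole table had a larger log2 fold change.

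GstD2 was at 91.6, 22.0, 70.1 and 56.0 CPM in control and 102, 73.5, 94.6 and 109 CPM on GlcNAc. Control library 2 was far below the other libraries and control library 1 lay within the GlcNAc range, so the groups overlapped. The log2 fold change was 0.82 with a 95% interval from 0.02 to 1.62 and an adjusted p of 0.171 by limma. GstD3, at 1.62 to 2.97 CPM in control and 3.21 to 4.43 CPM on GlcNAc, did not overlap between groups, yet its adjusted p was 0.0945 by limma. GstD4, GstD5, GstD7 and GstD8 had mean levels of at most 18.0 CPM in either group and overlapped, with adjusted p from 0.403 to 0.931 by limma. For the class as a whole the summed level was 146 ± 35.5 CPM in control and 307 ± 33.5 CPM on GlcNAc (SD, n = 4), of which GstD9 alone was 43.7 and 164 CPM.

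In the Epsilon class the members moved apart. GstE1 and GstE11 rose, GstE3, GstE5 and GstE7 fell, and 4 members did not pass, or 55.6% called beside 15.3% of all genes. GstE1 was at 79.3, 69.3, 81.7 and 83.1 CPM in control and at 137, 143, 163 and 126 CPM on GlcNAc. All GlcNAc libraries were well above all control libraries, with a log2 fold change of 0.86 (SE 0.09, adjusted p of 0.000191 by limma). GstE11 was rare, at 1.09, 0.839, 0.501 and 0.794 CPM in control and 2.52, 1.41, 2.80 and 2.06 CPM on GlcNAc. These levels rest on 4 to 10 reads per control library and 13 to 27 per GlcNAc library. Its log2 fold change was 1.45 (SE 0.34, adjusted p of 0.0157 by limma), and the call was lost without GlcNAc library 1 (adjusted p of 0.0524) or 3 (adjusted p of 0.0513).

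GstE3, the most abundant GST per length of exon in control, was at 379, 507, 368 and 412 CPM in control and at 325, 300.3, 311.5 and 292 CPM on GlcNAc. Control library 2 was the highest, and the GlcNAc libraries were closely grouped below all controls. The log2 fold change was -0.43 (SE 0.10, adjusted p of 0.0143 by limma). GstE5 showed a larger decrease from a lower level, from 55.0, 62.2, 67.2 and 62.1 CPM to 46.9, 34.4, 40.3 and 41.2 CPM. Its groups did not overlap and its log2 fold change was -0.60 (SE 0.10, adjusted p of 0.0026 by limma). GstE7 went from 161, 172, 154 and 160.5 CPM to 138, 138, 136 and 128 CPM. This was the smallest called change of the members, -0.26 on the log2 scale (SE 0.06, adjusted p of 0.011 by limma), and the libraries of each group differed little from each other.

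The other Epsilon members gave no call. GstE6, 1 of the most abundant GSTs, had 219 to 317 CPM in control and 292 to 361 CPM on GlcNAc, with a log2 fold change of 0.33 (95% interval 0.06 to 0.60, adjusted p of 0.102 by limma). Control library 2 was its highest control, and without that library the adjusted p was 0.0382. GstE9 and GstE13 had log2 fold changes of -0.23 and 0.07, and GstE2, at no more than 1.89 CPM in any library, one of 0.93 with an interval that included 0. The summed level of the 9 members was 1241 ± 146 CPM in control and 1182 ± 77.1 CPM on GlcNAc, and the groups overlapped.

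**Figure D2:**
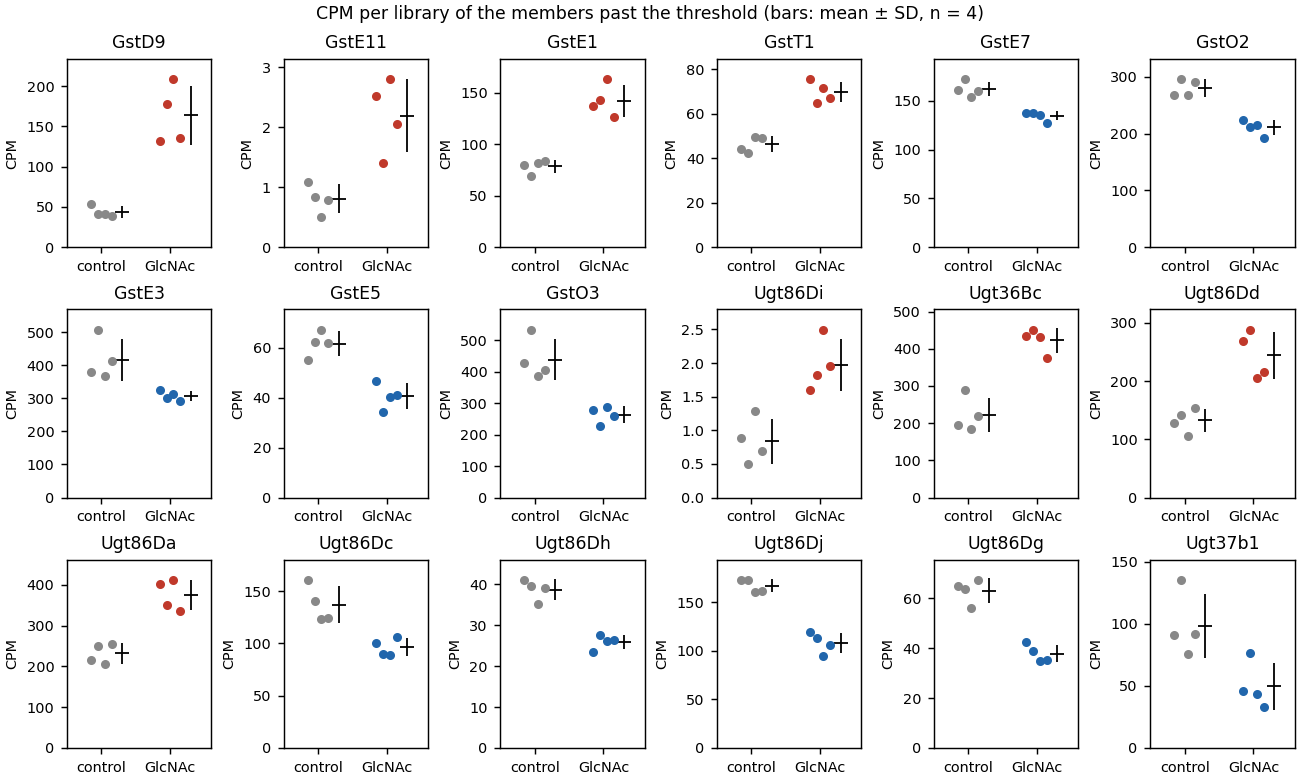
Level (CPM) of the 18 members past the threshold in each of the 8 libraries, with control in grey and GlcNAc in red (higher) or blue (lower). Crosses are the mean with the SD over 4 libraries, and Ugt37b1 is the gene whose groups overlap, at 75.6 CPM in the lowest control library and 76.1 CPM in the highest GlcNAc library.

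The Omega class fell in its abundant members, and 66.7% of the class was called, beside 15.3% of all genes. GstO3 was at 428, 534, 385 and 407 CPM in control and at 277, 226, 289 and 259.6 CPM on GlcNAc. Every GlcNAc library was lower than every control library by a wide margin, and the log2 fold change was -0.73 (SE 0.11, adjusted p of 0.0017 by limma). GstO2 was at 267.5, 296, 267.5 and 292 CPM in control and at 223.5, 212, 216 and 192.5 CPM on GlcNAc. Its libraries also separated, with a log2 fold change of -0.41 (SE 0.07, adjusted p of 0.0024 by limma). GstO1, at 11.8 CPM per kb of exon in control against 161 for GstO2, had 11.3 ± 2.26 CPM in control and 12.7 ± 1.64 CPM on GlcNAc (SD, n = 4), and its log2 fold change of 0.19 did not pass (95% interval -0.16 to 0.54). Together the 3 genes went from 731 ± 75.9 to 487 ± 33.0 CPM, 0.666 of the control level.

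Of the Theta class, GstT1 rose and the others did not pass, so that 25% was called, beside 15.3% of all genes. GstT1 was at 44.2, 42.1, 49.6 and 48.8 CPM in control and at 75.4, 64.9, 71.3 and 67.1 CPM on GlcNAc. The groups were clearly apart, with a log2 fold change of 0.59 (SE 0.08, adjusted p of 0.0007 by limma). GstT4 had more reads than any other member, at 420.5, 672, 418 and 496 CPM in control and 703, 791, 500.5 and 646 CPM on GlcNAc. Control library 2 lay within the GlcNAc range and GlcNAc libraries 3 and 4 within the control range. Its log2 fold change was 0.40 (95% interval 0.02 to 0.79, adjusted p of 0.156 by limma), and the adjusted p was 0.0345 without control library 2. GstT2 and GstT3, each at no more than 38.5 CPM in any library, had log2 fold changes of 0.09 (95% interval -0.17 to 0.35) and -0.15 (95% interval -0.37 to 0.07).

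The remaining classes have 1 member each. GstS1, the Sigma enzyme known for acting on products of lipid peroxidation, was at 29.8, 24.9, 29.5 and 26.3 CPM in control and at 24.0, 21.1, 32.8 and 27.2 CPM on GlcNAc. The groups overlapped fully, and the log2 fold change was -0.09 (95% interval -0.37 to 0.20, adjusted p of 0.727 by limma). GstZ1, whose mammalian relative works in the breakdown of tyrosine, was at 16.3, 15.9, 13.3 and 16.8 CPM in control and at 14.2, 15.8, 15.6 and 12.8 CPM on GlcNAc. It did not pass either, with a log2 fold change of -0.09 (95% interval -0.33 to 0.15, adjusted p of 0.647 by limma). These intervals reach up to a 1.30-fold change.

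Among the UGTs the largest group, Ugt86, split into 3 members that rose (Ugt86Di, Ugt86Dd and Ugt86Da), 4 that fell (Ugt86Dg, Ugt86Dj, Ugt86Dh and Ugt86Dc) and 1 without a call. In this group 87.5% were called, beside 15.3% of all genes. Ugt86Dd, known in flies for variation in resistance to nicotine, was at 128, 141, 106 and 153 CPM in control and at 269, 288, 205 and 215 CPM on GlcNAc. The groups did not overlap, and the log2 fold change was 0.88 (SE 0.14, adjusted p of 0.0018 by limma). Ugt86Da went from 215.5, 251, 206 and 254.5 CPM to 401, 350.5, 412 and 336 CPM. All GlcNAc libraries exceeded all controls, by 0.70 on the log2 scale (SE 0.09, adjusted p of 0.00095 by limma). Ugt86Di was near the limit of the table, at 0.885, 0.503, 1.28 and 0.688 CPM in control and at 1.59, 1.82, 2.50 and 1.96 CPM on GlcNAc.

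These levels of Ugt86Di come from 4 to 11 reads in a control library and 15 to 24 in a GlcNAc library. Its log2 fold change was 1.30 (SE 0.34, adjusted p of 0.0268 by limma). The call was lost without control library 2 (adjusted p of 0.0555), control library 4 (0.0674), GlcNAc library 3 (0.0783) or GlcNAc library 4 (0.0683).

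The decreases within Ugt86 were of similar size. Ugt86Dg went from 65.0, 63.9, 56.0 and 67.3 CPM in control to 42.3, 38.7, 35.0 and 35.4 CPM on GlcNAc, or by -0.74 on the log2 scale (SE 0.08, adjusted p of 0.00036 by limma). Ugt86Dj went from 173, 173, 160.4 and 162 CPM to 119, 114, 95.1 and 106 CPM, with a log2 fold change of -0.63 (SE 0.07, adjusted p of 0.00043 by limma). In both genes the libraries of a group lay close together and the groups were far apart. Ugt86Dh was at 41.1, 39.5, 35.1 and 39.2 CPM in control and at 23.4, 27.6, 26.2 and 26.5 CPM on GlcNAc, a log2 fold change of -0.58 (SE 0.08, adjusted p of 0.00095 by limma). Ugt86Dc had 161, 141, 123 and 124 CPM in control and 100.3, 89.5, 88.8 and 106 CPM on GlcNAc, a log2 fold change of -0.51 (SE 0.10, adjusted p of 0.0062 by limma). Neither gene overlapped between groups. Ugt86De, at no more than 1.84 CPM in any library, had a log2 fold change of -0.83 that did not pass (95% interval -1.61 to -0.05, adjusted p of 0.152 by limma).

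Outside Ugt86, Ugt36Bc rose and Ugt37b1 fell. Ugt36Bc had 195, 288, 185 and 220.3 CPM in control and 434, 451, 431 and 374 CPM on GlcNAc. Control library 2 was the highest control and still below the lowest GlcNAc library, and the log2 fold change was 0.95 (SE 0.13, adjusted p of 0.00093 by limma). Ugt37b1 was at 91.3, 135, 75.6 and 91.5 CPM in control and at 45.5, 76.1, 43.6 and 32.9 CPM on GlcNAc. Library 2 was the highest of each group, and GlcNAc library 2 just reached the lowest control. The log2 fold change of -1.03 was the largest decrease among called members and had the widest error of those above 10 CPM (SE 0.24, adjusted p of 0.0168 by limma, exact permutation p = 0.0571).

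Ugt35a was the most abundant of the 13 UGT members per length of exon in control. It was at 224, 287, 235 and 267 CPM in control and at 259, 211, 213 and 219 CPM on GlcNAc. The groups overlapped through GlcNAc library 1, and the log2 fold change was -0.16 (95% interval -0.38 to 0.05, adjusted p of 0.303 by limma). Ugt37a1 (10.3 ± 1.87 and 8.05 ± 2.22 CPM) and Ugt36Ba (1.72 ± 0.686 and 1.51 ± 0.749 CPM in control and GlcNAc, SD, n = 4) did not pass either. The interval of Ugt36Ba ran from -1.20 to 0.72 on the log2 scale, so its level on GlcNAc was not resolved at this depth.

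Over the 20 members without a call, a p that misses the threshold does not show that the levels were alike. Of the 14 with at least 10 CPM, 10 had 95% intervals that stayed within 1.5-fold in either direction. The widest was that of GstD2, whose upper bound was 1.62 on the log2 scale.

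The sum over the members of a family changed less than its called members did. The 25 GSTs summed to 2575, 3182, 2539 and 2772 CPM in control and to 2897, 2948, 2725 and 2639 CPM on GlcNAc, and the groups overlapped. Their means were 2767 ± 295 and 2802 ± 145 CPM, a ratio of 1.01. Within this sum the 4 members that rose went from 169 ± 11.0 to 378 ± 51.0 CPM, the 5 that fell from 1360 ± 146 to 957 ± 52.0 CPM, and the 16 others from 1238 ± 163 to 1468 ± 159 CPM. These parts were chosen by the test and are given as a description.

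For the 13 UGTs the sum was 1311, 1534, 1195 and 1392 CPM in control and 1706, 1661, 1561 and 1463 CPM on GlcNAc. The lowest GlcNAc library was below control library 2, and the ratio of the means was 1.18. With the UGTs under other symbols, described below, 26 genes summed to 2364 to 2947 CPM in control and 3108 to 3617 CPM on GlcNAc. These sums did not overlap, and CG5724 alone had means of 177 and 698.5 CPM within them. Among the 13 members the parts were again chosen by the test. The 4 members that rose went from 587 ± 83.3 to 1044 ± 81.1 CPM and the 5 that fell from 504 ± 45.9 to 318 ± 25.1 CPM (SD, n = 4).

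**Figure D3:**
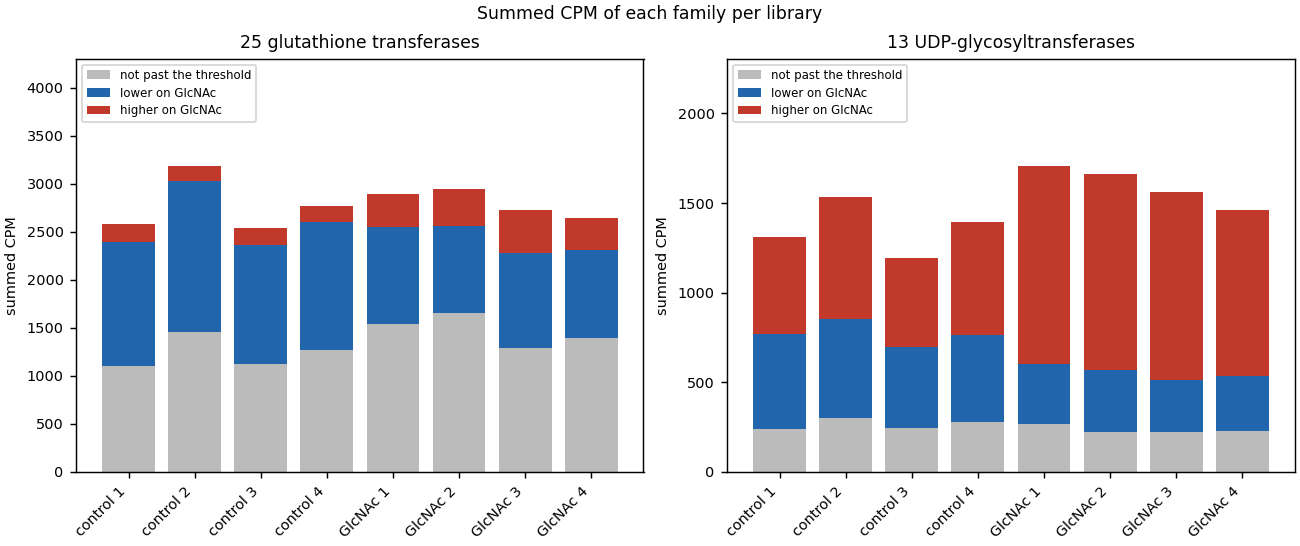
Summed level (CPM) of the 25 GSTs and the 13 UGTs in each library, stacked by whether the member fell, rose or did not pass the test. The GST totals overlap between groups (2539 to 3182 CPM in control, 2639 to 2948 CPM on GlcNAc). The parts were chosen by the test on these same libraries, so their differences between groups are a description only.

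To compare levels between genes, CPM was divided by the length of a gene's exons in kb. On this scale the GSTs of the control intestine were led by GstE3 with 18.2 ± 0.838% of the summed level of the family, GstO3 with 16.5 ± 1.10%, GstT4 with 13.5 ± 1.73% and GstE6 with 11.7 ± 1.10% (SD, n = 4). GstT4 and GstE6 differed by about the spread of GstT4 between libraries. On GlcNAc the order was GstT4 with 17.7 ± 2.86%, GstE6 with 14.4 ± 0.754%, GstE3 with 13.4 ± 0.587% and GstO3 with 9.81 ± 1.23%, and the shares of GstE6 and GstE3 were about 1 SD apart. GstD9 went from 1.87 ± 0.412% (rank 11) to 6.82 ± 1.51% (rank 6). GstE9 followed in both groups, so the first 5 places were held by the same genes with or without GlcNAc.

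Among the 13 UGT members, Ugt35a held 18.8 ± 1.16% of their summed level per kb in control. Ugt86Da with 15.4 ± 0.817% and Ugt36Bc with 14.9 ± 1.64% came next and were within their spread of each other. On GlcNAc Ugt36Bc came first with 24.8 ± 1.10%, followed by Ugt86Da with 21.6 ± 2.11% and Ugt86Dd with 16.7 ± 1.90%, and then Ugt35a with 14.5 ± 1.20% (SD, n = 4). Ugt86Dj and Ugt86Dc went from 12.8 and 11.4% to 7.16 and 6.96%. A share depends on all members counted, and the level of Ugt35a itself gave no call. UGTs under other symbols, described below, were not counted. Among them CG4302 was at 560 CPM in control and 602 CPM on GlcNAc, and CG5724 at 177 and 698.5 CPM.

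**Figure D4:**
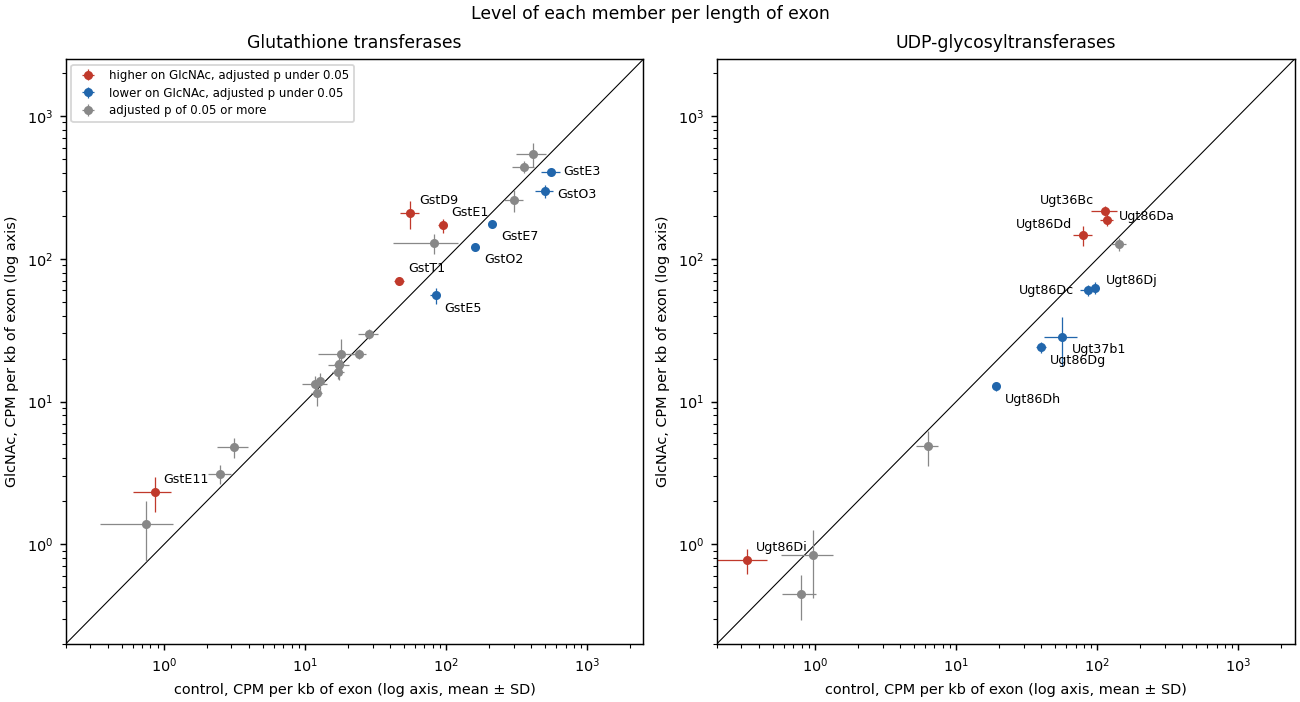
Level of each member in control (x axis) and on GlcNAc (y axis), as CPM per kb of exon on log axes, with the SD over 4 libraries. Points above the diagonal are higher on GlcNAc, and the named members passed the test, from GstE11 and Ugt86Di at the low end to GstE3, which fell from 552 to 407 CPM per kb.

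Members called in opposite directions lay in the same gene clusters. Coordinates are those of the BDGP6 annotation, which uses the release 6 assembly of the authors' mapping. Of the Ugt86 genes 8, with Ugt35a, lie in 51.3 kb of chromosome 3R (11126597 to 11177910), in the order Ugt86Dd, Ugt86Di, Ugt86Dc, Ugt86Da, Ugt86Dg, Ugt86De, Ugt35a, Ugt86Dj and Ugt86Dh, with other annotated genes between some of them. Along it 3 members rose and 4 fell, beside 8.75% of all genes higher and 6.6% lower. Of the 8 pairs of neighbouring members 3 were called in opposite directions and 2 in the same direction. These counts include Ugt86Di, listed only through the GlcNAc libraries, whose call was lost in 4 of the refits. Its pairs with Ugt86Dd (same direction) and Ugt86Dc (opposite directions) rest on that call. The 3 higher members lie among the first 4 of this order, and the 3 members called from Ugt86Dg to Ugt86Dh were all lower. Ugt86Dc (lower) lies between Ugt86Di and Ugt86Da (both higher), with the start of Ugt86Da at 11157098 and the end of Ugt86Dc at 11156513, on the same strand.

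Calls in both directions also occurred in the Epsilon cluster on chromosome 2R (18398393 to 18409835), where 7 members lie in 11.4 kb on the same strand. GstE1 at its low end rose, GstE3, GstE5 and GstE7 fell, and GstE2, GstE6 and GstE9 gave no call. Unlike in the Ugt86 cluster, none of its 6 pairs of neighbouring members was called in opposite directions. In the Delta cluster on chromosome 3R (12366163 to 12380815, 14.7 kb) the called gene, GstD9, lies at the low end on the minus strand and the other 6 members follow on the plus strand. The log2 fold changes of these 6 were 0.82 for GstD2, 0.63 for GstD3, 0.32 for GstD4, 0.27 for GstD5, 0.03 for GstD7 and 0.11 for GstD8 in map order, none of them past the threshold. The Omega genes lie within 5.98 kb of chromosome 3L (8518885 to 8524866). GstT1 (chromosome 2R, 9605988 to 9607184) ends 107 bases before GstT2 (9607292 to 9608350), and GstT1 was called and GstT2 was not.

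The genes of these clusters are close relatives, and reads that mapped equally well to several copies could not be assigned by the authors' counting, so that levels of the closest relatives are uncertain. No member shares exon bases on its own strand with another annotated gene. For 5 members there is such overlap on the opposite strand, and the libraries and the counting kept the strand.

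**Figure D5:**
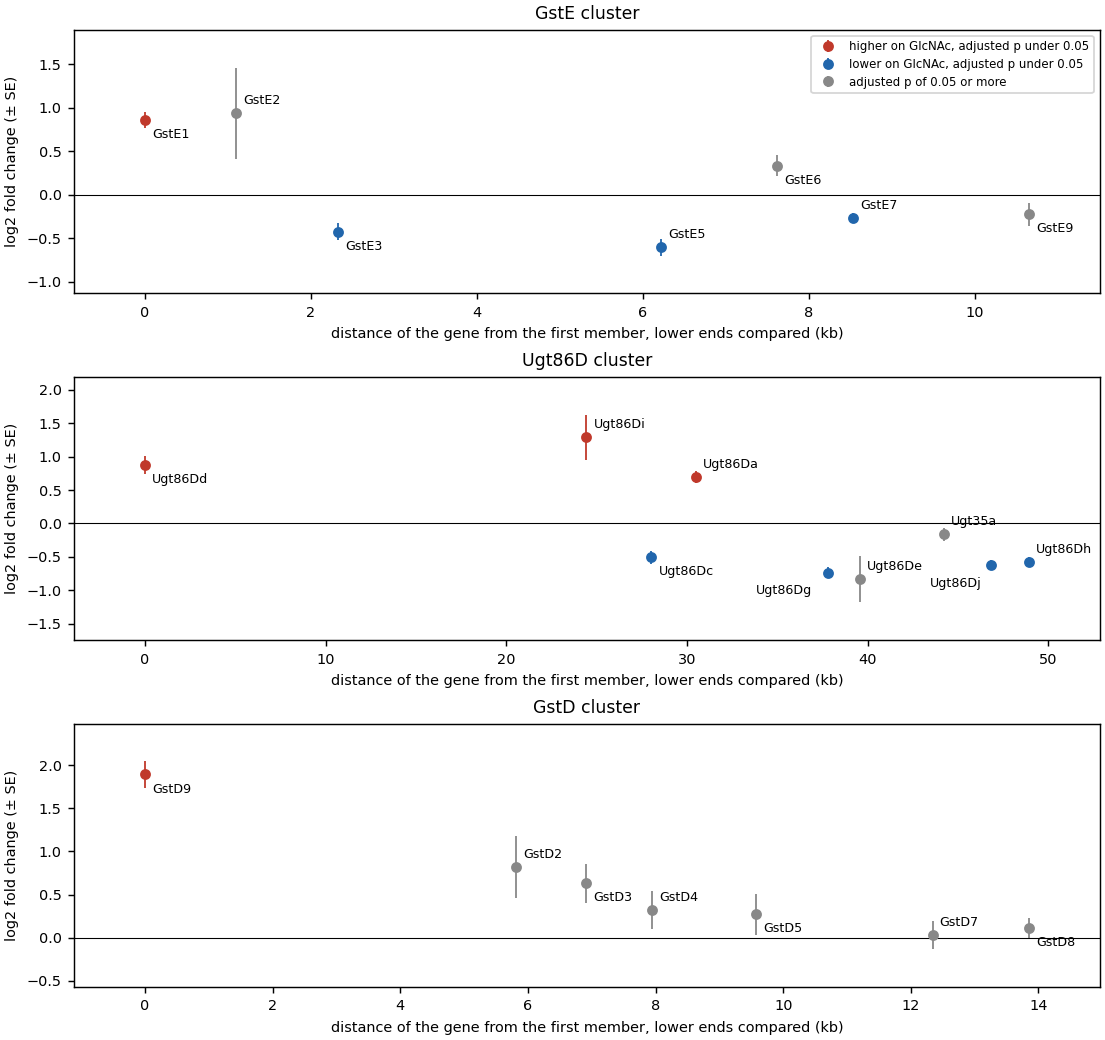
Log2 fold change (GlcNAc against control, with SE) of the members of the GstE, Ugt86D and GstD clusters against their distance in kb along the chromosome. Higher (red) and lower (blue) members occur together in the GstE and Ugt86D clusters, whereas in the GstD cluster GstD9 is the called member and the 6 other points gave no call.

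The symbols of the table are older ones, and 13 further genes of it carry a Ugt name in the current gene names but not in the table. Of these 3 were higher, 1 was lower and 9 did not pass, or 30.8% called beside 15.3% of all genes. CG5724, now Ugt37A2, was at 161, 197, 158 and 194 CPM in control and at 725, 689, 800.5 and 579 CPM on GlcNAc. Its lowest GlcNAc library was 2.94 times its highest control library, and its log2 fold change of 1.97 (SE 0.11, adjusted p of 6.5e-06 by limma) was above that of any member. CG5999, now Ugt37A3, lies beside it on chromosome 3R and had 37.8 ± 6.47 CPM in control and 85.2 ± 16.2 CPM on GlcNAc (SD, n = 4), which is 1.17 higher on the log2 scale (adjusted p of 0.00072 by limma). CG18869 (now Ugt305A1) was higher by 0.27 and CG10168 (now Ugt303B2) lower, at -0.62, with adjusted p of 0.0387 and 0.0047 by limma. With these, 7 of 26 UGTs were higher and 6 lower, or 50% called beside 15.3% of all genes.

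Current names also regroup the members, as Ugt36Ba and Ugt36Bc are now Ugt37C2 and Ugt37D1, and the Ugt86 genes fall into Ugt35, Ugt302, Ugt303 and Ugt304. Sorted in this way, both directions still occurred within Ugt37 (3 of 6 higher, 1 lower), Ugt302 (2 of 3 higher, 1 lower) and Ugt35 (1 of 4 higher, 1 lower). The higher calls of Ugt302 include Ugt86Di, which was listed only through the GlcNAc libraries. Ugt303 had 2 of 4 lower and none higher. Over all genes 8.75% were higher and 6.6% lower.

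Genes that supply and export the conjugates were looked at beside the 2 families. Of 11 symbols searched for glutathione supply 6 were listed. None of these was higher and 2 were lower, or 33.3% called beside 15.3% of all genes. Ggt-1, which splits glutathione outside the cell, went from 176, 311, 220 and 232 CPM in control to 99.3, 74.9, 93.7 and 101 CPM on GlcNAc. Each GlcNAc library was below each control library, at -1.33 on the log2 scale (SE 0.16, adjusted p of 0.00043 by limma). Gclc, the catalytic subunit of the first enzyme of glutathione synthesis, was lower by a log2 fold change of -0.27 (adjusted p of 0.0431 by limma).

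For ABC transporters of the kinds that carry conjugates or drugs out of cells, 20 symbols were searched and 14 genes were listed. Some symbols are names of the same gene, such as CG11897 and rdog, so the others were not all absent genes. Of the 14 listed, 4 were higher and 2 were lower, or 42.9% called beside 15.3% of all genes. MRP, the fly relative of the mammalian multidrug resistance proteins, was at 659 ± 39.6 CPM in control and 1298 ± 70.4 CPM on GlcNAc, higher by 0.98 on the log2 scale (SE 0.07, adjusted p of 2.7e-05 by limma). Mdr50, a P-glycoprotein, was at 929 ± 286 and 1693 ± 237 CPM, higher by 0.90 on the log2 scale (SE 0.19, adjusted p of 0.0098 by limma). CG11897 and CG7806 were higher by 0.45 and 0.26, and CG4562 and CG10505 lower, both at -0.41. The table also holds 61 genes whose symbol starts with Cyp and a number, most of them cytochrome P450 genes, though Cyp1 is not one. Of the 61, 22 were higher and 7 lower, or 47.5% called beside 15.3% of all genes and 47.4% of the members.

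Regulators of detoxification genes were listed for 6 of 7, and 50% of these were called beside 15.3% of all genes. Hr96, a nuclear receptor for foreign compounds, was higher (log2 fold change 0.39, adjusted p of 0.0049 by limma). Keap1, which holds back the transcription factor encoded by cnc, was lower (-0.58, adjusted p of 0.028), as was foxo (-0.33, adjusted p of 0.0328). The mRNA of cnc itself gave no call (0.13, adjusted p of 0.236). Outside the symbol rule 2 of 5 further GSTs were listed. Mgstl, a microsomal enzyme, had a log2 fold change of 0.35 that did not pass (adjusted p of 0.0732), and gfzf, a zinc finger protein with a GST domain, was lower at -0.44 (adjusted p of 0.0248). These values are levels of mRNA, and no enzyme activity was measured in these files.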

How the data were processed

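Single-end, strand-specific mRNA libraries of 4 control and 4 GlcNAc samples were analysed, with groups and replicate numbers taken from the sample titles. The authors trimmed reads with Trimmomatic, mapped them with TopHat2 2.1.0 to the FlyBase release 6 genome, counted them on exons with HTSeq (version 2.7.6 in the submitters' processing notes), dropped alignments of low quality, and kept genes over 1 CPM in at least 3 libraries of a group. The deposited values are log2 CPM. They carry the authors' scaling between libraries and 0.5 read added to each count, so that changes of rare genes are understated. Beside them the authors deposited a mean and fold change on the log2 scale, test statistics (each a score with no fixed range), and a p-value with its adjusted and F test forms, none of which was used.

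All 7671 genes entered 1 fit of condition to the log2 values (R 4.3.3, limma 3.58.1, lmFit and eBayes with trend), with Benjamini-Hochberg adjustment and a threshold of 0.05. Levels in CPM were obtained by undoing the log2 in each library before taking the mean and SD, and fold changes are differences of mean log2 values with 95% intervals from limma's standard error. An exact permutation test, two-sided, was added for each member. Reads came out whole for 100% of 61368 values (within 0.01 read) and entered only the alternatives named below. Reads are given beside the levels of the rare called members.

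Named with values in each library were all called members and the member with the highest mean of each class, and GstD2, Ggt-1 and CG5724 were added after their values had been seen. Genes of the related lists were named by whether they passed, and others beside them as context. The members, lists and rules were chosen with earlier results of these data known. Current names were matched for 7580 of 7671 gene identifiers and exon lengths for all 38 members. The alternatives were a minimum of 10 CPM, a replicate block, leaving out each library, voom weights on recovered reads, library totals, quantile normalization, pseudocounts of 0.1 and 2 CPM, no variance trend, an adjusted p of 0.01 and a change of at least 1.5-fold. No sequences are shown, and promoters and the genes of UDP-sugar supply are not reported here.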

Additional observations from a re-analysis of the deposited data

Results flagged for a closer look

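GstD9 in control library 1 was at 53.9 CPM, far from the other control libraries, which lay between 38.8 and 41.2 CPM. It was the highest value of its group, and the lowest GlcNAc library was at 132 CPM. This was 1 flag among 76 groups of 4 libraries (38 members in both conditions), and chance flags about 1 in 20 groups.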

How the results depend on the processing

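Of the 18 called members 16 kept their call in every refit, and none changed direction. GstE11 and Ugt86Di lost theirs when certain libraries were left out, as given above, and had no value under a minimum of 10 CPM. A replicate block gave 1324 called genes against 1177, and GstD2 (adjusted p of 0.0364) and GstT4 (0.0182) passed under it. Same-numbered libraries correlated at 0.211, 0.397, 0.151 and -0.0588 in their deviations from the group means, and since the last is not above 0.1 the numbers were not taken to pair the samples. GstE6 passed with library totals (adjusted p of 0.0441). At an adjusted p of 0.01, 574 genes were called, with 3 GSTs higher and 3 lower and 3 UGTs higher and 4 lower. With a change of at least 1.5-fold 463 genes were called, with 4 GSTs higher and 2 lower and 4 UGTs higher and 3 lower. Leaving out 1 library gave 852 to 1111 genes, 3 to 6 GSTs and 3 or 4 UGTs that rose, and the same 5 decreases in each family. Without calls, GstD7 changed sign with quantile normalization (-0.0243), and over the fits without 1 library the log2 fold change of GstD7 ran from -0.0908 to 0.151, of GstS1 from -0.199 to 0.012 and of Ugt36Ba from -0.533 to 0.0937. The causes were not tested. Another scaling moved the median of all genes by less than 0.1.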
